A study of Mus musculus with 14 samples.

Results

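The expression of 5 genes of the Notch and hedgehog pathways was followed in brain and thymus of mice without the microRNA miR-34a. They are the Notch receptor Notch3, the protease Adam10, the gamma-secretase subunit Psen2, the hedgehog-binding protein Hhip and the hedgehog co-receptor Gas1. They were chosen by probe, 1 spotted cDNA probe each, and are 5 of 1380 genes that could be named on an array of 20160 probes. The probes are MG-12-212i23 (Notch3), MG-13-136j18 (Adam10), MG-6-48o22 (Psen2), MG-8-19l21 (Gas1) and a clone of the same set for Hhip. 4 of them were matched to their gene by a RefSeq mRNA accession. The Notch3 probe was matched only through a sequence tag that RefSeq lists as a synonym of Notch3, so its identity rests on weaker ground.

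The mutants carried the genotype mir-34a minus and were male C57BL/6 mice aged 17 weeks. Controls were males of equal age and background, and their RNA was used only as 1 pool per organ. How the mutant allele was made, and whether it acts in all cells, is not given in the sources used here. Brain RNA of 3 mutants and thymus RNA of 4 mutants, among them the same 3 animals, was hybridised against the pool of its organ. Each RNA was run on 2 arrays with the dyes Cy3 and Cy5 exchanged, giving 6 brain and 8 thymus arrays. Every value called a ratio below is log2 of mutant over pool. The spread among control mice is not in these ratios, and separate mice are the replicates.

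Notch signalling passes between touching cells. A ligand on one cell lets Adam10 cut the receptor of its neighbour outside the membrane, gamma-secretase with a presenilin as its catalytic subunit then cuts within the membrane, and the freed intracellular part switches on target genes with Rbpj. Notch3 is best known from the smooth muscle cells and pericytes of blood vessels, and Notch signals direct blood progenitors into the T cell lineage in the thymus. In the hedgehog pathway a secreted ligand binds Ptch1, which releases Smo and activates the Gli transcription factors. Hhip binds the ligands and holds them away from Ptch1, while Gas1 helps present them. Hedgehog signals maintain stem cell niches of the adult brain and act on early thymocytes. In human tumour cells miR-34a has been reported to repress Notch receptors and the ligand JAG1.

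MicroRNAs find their targets mainly by pairing of the seed, bases 2 to 8 from the 5′ end. The mature sequence of the missing microRNA is shown, from RefSeq on GRCm38.p6, beside that of a relative with the same seed that lies on another chromosome. Capitals mark the seed.
mmu-miR-34a-5p (chr4:150068473-150068494, plus strand): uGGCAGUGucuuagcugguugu
mmu-miR-34b-5p (chr9:51103610-51103632, minus strand): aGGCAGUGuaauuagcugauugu
Both carry GGCAGUG as the seed. Neither microRNA was measured on these arrays, and target sites in the 5 genes were not analysed here.

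Spot quality set the limits in thymus. The share of probes detected on an array ran from 56.2% to 94.3% in brain and from 7.94% (replicate 8) to 85.2% (replicate 6) in thymus. Spots with a negative flag in the scanner files, called flagged here, were left out. They made up 0.812% to 10.7% of spots in brain and 9.32% to 72.4% in thymus. Thymus replicate 1 carries brain as its tissue in 1 label, while its title and pool name thymus, and it was kept as thymus. Organ markers followed their labels in part, where 0.583% of 16992 probes passed between the organs in limma. All 3 thymocyte probes were brighter in thymus, and Satb1 passed (limma adjusted p = 0.0224). Cd8a had an adjusted p of 0.0490 in limma, but it was detected on 2 of 6 brain arrays and so entered the test through thymus, where it is high. Of 7 neuron probes 5 were brighter in brain, of which 1 for Stmn2 passed (limma adjusted p = 0.00699). These calls did not pair the organs by mouse. With the mouse as replicate block 7 probes passed in place of 99, and the marker calls were not followed there. Of the other markers, the astrocyte gene Ntsr2 and the oligodendrocyte gene Olig1 read higher in thymus and Olig2 higher in brain, none past the test. The thymic epithelial gene Epcam stood at 7.24 in brain and 7.22 in thymus, and the endothelial gene Eng at 6.55 and 6.52. Of 3 muscle probes 1 was brighter in brain and 2 in thymus, none past the test. The 2 neuron probes brighter in thymus, also not past it, were Slc17a7 (7.71, against 7.37 in brain) and Nsf (6.74, against 6.72). Whole organs were used, so a lower share of a cell type and less RNA per cell cannot be told apart.

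Adam10, the protease that makes the first ligand-induced cut of Notch receptors, gave the clearest spots. It counted as detected, with a foreground mean at least 2 background SDs above the local background median in at least 1 channel, on all 6 brain arrays, as did 28.6% of all probes. In thymus it was detected on 6 of 8 arrays, where 10.6% of probes reached 6 or more. In brain the mutant channel stood at 2.65 to 7.58 times the background with a median of 4.13, and the pool channel at 2.37 to 8.50 times with a median of 3.63. In thymus the medians were 2.25 for the mutant and 2.22 for the pool. No pixel of any spot of the 5 genes was saturated.

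Notch3, Psen2, Hhip and Gas1 lay nearer to background. In brain Notch3 and Hhip were each detected on 5 of 6 arrays, Gas1 on 4 and Psen2 on 3, where 54.5%, 73.5% and 88.9% of all probes reached at least 5, 4 and 3 arrays. The median signal of the mutant channel there was 1.76 times background for Notch3, 2.17 for Hhip, 1.75 for Gas1 and 1.65 for Psen2. In thymus Hhip was detected on 4 of 8 arrays and each of Notch3, Psen2 and Gas1 on 2, where 33.3% and 75.8% of all probes reached at least 4 and 2 arrays. On each of these 4 arrays Hhip was detected in the Cy3 channel alone. That was the mutant on thymus replicates 3 and 6 and the pool on replicates 2 and 4. The spots of Psen2 were flagged on 6 thymus arrays, those of Notch3 on 4, and those of Hhip and of Gas1 on 2 each. Thus Adam10 and Hhip could be tested in both organs, and Notch3, Psen2 and Gas1 only in brain. These multiples describe how well each spot was read, and not how much of each transcript was present.

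**Figure D1:**
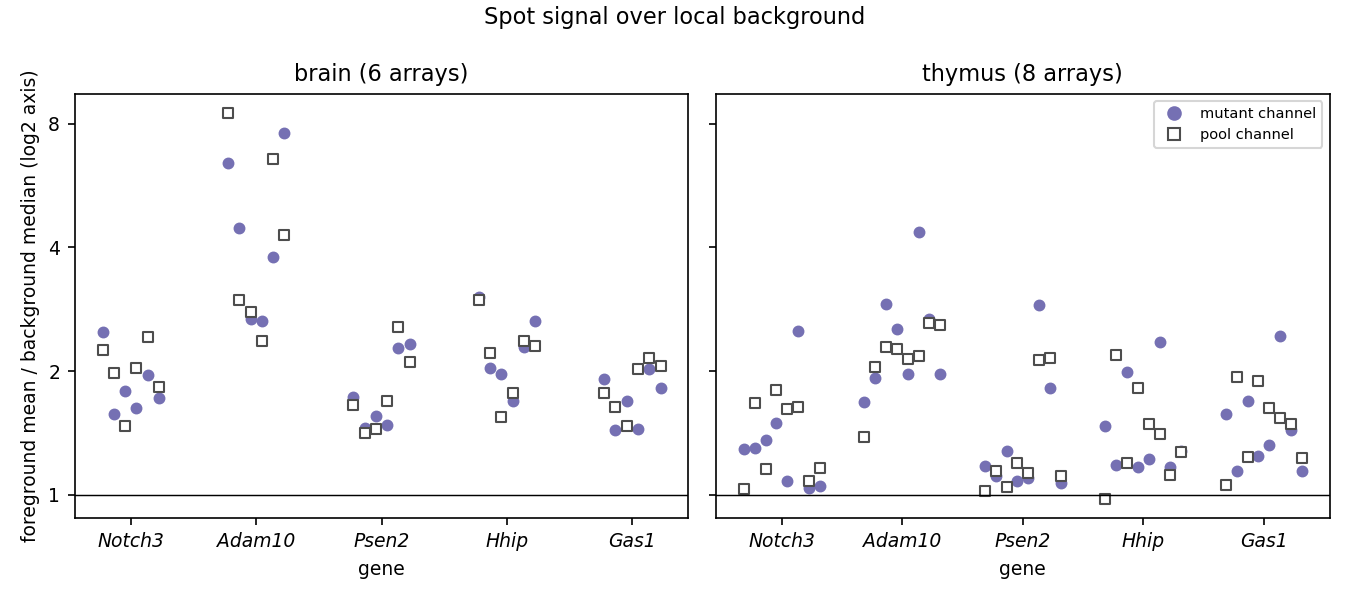
Foreground mean over local background median of each spot (log2 axis) for the 5 genes on the 6 brain and 8 thymus arrays, circles for the mutant channel and squares for the pool channel. Adam10 in brain reached 8.50 times background, while most thymus spots of Psen2 lay close to 1, with a median of 1.14 in the mutant channel.

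The question put to each organ was whether transcripts differed between mutants and the control pool. In brain none of the 5 genes passed an adjusted p of 0.05 in limma (0 of 5, against 0% of 17567 probes). At an unadjusted p under 0.05 there were again 0 of 5, against 784 probes or 4.46%. Of the 5 ratios 3 lay above and 2 below 0, where 50.5% of all tested probes lay above, with a median of 0.04, where the median over all probes was 0.0009. Hhip had the highest of them at 0.10 and Gas1 the lowest at -0.11. In thymus neither Adam10 nor Hhip passed (0 of 2, against 0% of 5407 probes in limma, of which 273 or 5.05% had an unadjusted p under 0.05).

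Notch3, the receptor, lay slightly below the pool in the brain of all 3 mutants. The ratios were -0.03 in mouse 1, -0.01 in mouse 2 and -0.17 in mouse 3. All 3 lay on one side of 0, which 13.1% of probes did in this direction. The mean was -0.07 ± 0.09 (SD, n = 3), with a 95% interval from -0.22 to 0.08 (limma adjusted p = 0.850). On single arrays 3 ratios lay above and 3 below 0. The value of mouse 3 came from 1 array at -0.40, where the mutant channel was not detected, beside its dye-swapped array at 0.06. In brain the mutant channel was detected on replicates 1 and 6 alone, and the pool channel on all but replicate 3. The position below the pool therefore rests mostly on undetected mutant signal. In thymus only mouse 3 gave a ratio on both arrays, -0.45 and -0.05, and single arrays of mice 1 and 2 gave 0.25 and 0.23. With 1 complete mouse there was no test. No marker of vascular smooth muscle or pericytes among the 8 listed had a named probe, so changes in these cells could not be set beside Notch3.

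Adam10 stood close to the pool in both organs. In brain the ratios of mice 1 to 3 were 0.07, 0.12 and -0.05, on both sides of 0. Their mean was 0.05 ± 0.09 (SD, n = 3), with a 95% interval from -0.10 to 0.19 (limma adjusted p = 0.897). In thymus mice 1 to 4 gave 0.02, 0.09, 0.22 and 0.06, all above 0, as for 8.8% of the probes that all 4 mice measured, while 5.26% of these lay below 0 in all 4. The mean there was 0.10 ± 0.08 (SD, n = 4), with an interval from -0.06 to 0.26 (limma adjusted p = 0.850). Single thymus arrays ran from -0.23 to 0.39, with 6 of 8 above 0. With print-tip loess in place of loess over the whole array, the thymus mean was -0.03, so its direction depended on the normalisation.

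Psen2, the presenilin of the set, changed sides with the dye. With the mutant in Cy3 its brain ratios were -0.10, -0.21 and -0.10 in mice 1 to 3, and with the mutant in Cy5 they were 0.40, 0.14 and 0.10. The orientations thus lay on opposite sides of 0 in all 3 mice, which happened for 14.6% of probes. Averaged within mice, the ratios were 0.15, -0.03 and 0.0004. The mean was 0.04 ± 0.10 (SD, n = 3), with a 95% interval from -0.11 to 0.19 (limma adjusted p = 0.914), and without mouse 1 it was -0.02. In thymus 1 array each of mouse 3 and mouse 4 gave a ratio, -0.27 and 0.11, and no mouse gave both arrays.

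Hhip, which sequesters hedgehog ligands and is itself induced by hedgehog signalling, lay above the pool in the brain of all 3 mutants. The ratios were 0.03, 0.19 and 0.10 in mice 1 to 3, a pattern shared by 14.9% of probes in this direction. The mean was 0.10 ± 0.08 (SD, n = 3), with a 95% interval from -0.04 to 0.25 (limma adjusted p = 0.846), and 20.8% of tested probes had a ratio at least as far from 0. The single arrays split evenly, 3 above and 3 below 0, from -0.08 to 0.46. In thymus mice 2 and 3 gave 0.01 and 0.12, a mean of 0.07 ± 0.08 (SD, n = 2), with an interval from -0.20 to 0.33 (limma adjusted p = 0.940). The orientations of thymus mouse 2 were far apart, 0.42 with the mutant in Cy3 and -0.39 in Cy5. No thymus array of mice 2 and 3 had Hhip detected in both channels, so these ratios rest in part on undetected signal. Single arrays of mice 1 and 4 gave -0.52 and 0.23, and with these counted the thymus mean was -0.04.

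Gas1, a membrane-anchored protein that promotes hedgehog reception, had 5 of 6 brain arrays below 0. Its mutant channel was detected on brain replicates 1 and 5 alone, and neither channel was detected on replicates 3 and 6. Mouse 1 gave 0.06, mouse 2 -0.24 and mouse 3 -0.16, so the mice lay on both sides. The mean was -0.11 ± 0.16 (SD, n = 3), with a 95% interval from -0.30 to 0.07 (limma adjusted p = 0.846), and 17.2% of tested probes lay as far from 0. Both orientations had a negative mean, -0.20 with the mutant in Cy3 and -0.03 in Cy5. The SD of Gas1 exceeded the median SD of all tested brain probes, 0.10, while those of the other 4 genes, 0.08 to 0.10, were close to it. In thymus Gas1 was too dim to be tested. Mice 2 and 3 gave -0.08 and 0.11 there, and single arrays of mice 1 and 4 gave -0.34 and 0.01.

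**Figure D2:**
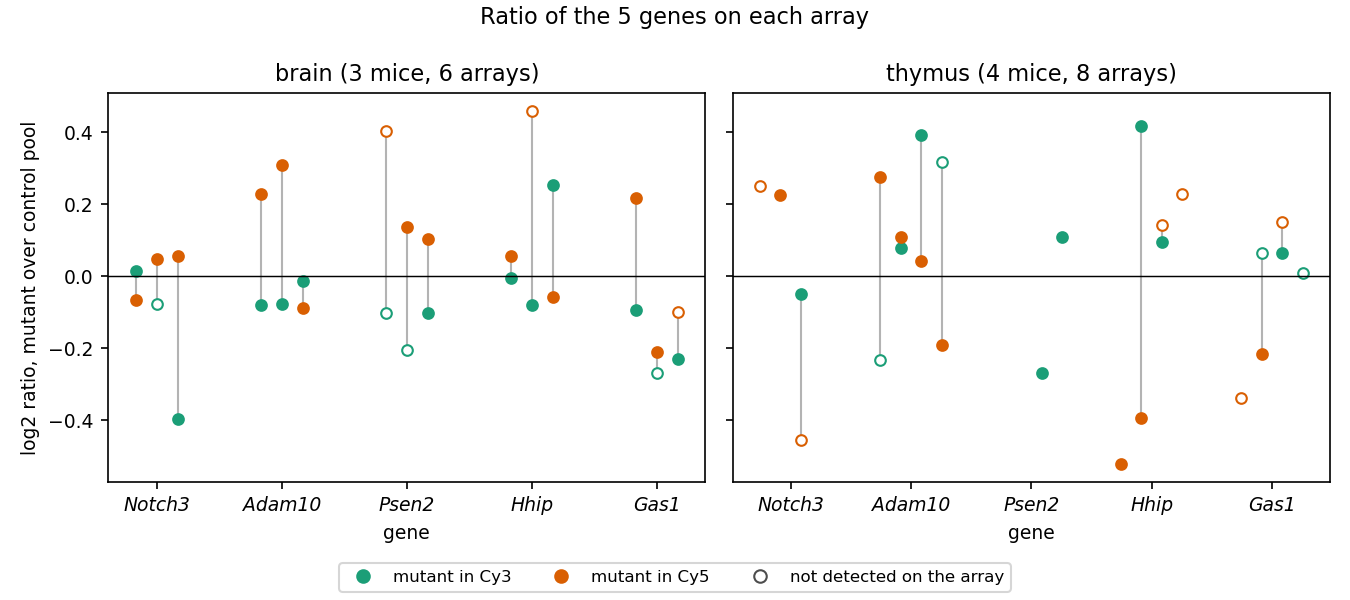
Log2 ratio of mutant over pool on each array for the 5 genes in brain (left, 3 mice) and thymus (right, 4 mice). Colour gives the dye of the mutant RNA, open circles mark arrays on which the spot was not detected, and a grey line joins the arrays of 1 mouse. Psen2 in brain is above 0 only in Cy5 and below 0 only in Cy3, and Adam10 is the only gene with a ratio on all 8 thymus arrays.

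The exchange of dyes gives a measure of technical error within a mouse. The ratio with the mutant in Cy5 minus that in Cy3, divided by 2 and called the dye part here, averaged 0.18 for Psen2, 0.10 for Adam10, 0.08 for Gas1, 0.08 for Notch3 and 0.05 for Hhip in brain. All 5 means were positive, but single mice went the other way for Notch3 (mouse 1), Adam10 (mouse 3) and Hhip (mouse 3), and the SD over mice exceeded the mean for these 3 genes. Of the 7 other pathway genes tested in brain 4 had a negative dye part. The median absolute dye part over all tested brain probes was 0.10, against a median absolute ratio of 0.05. For Notch3, Adam10 and Psen2 the dye part was larger than the ratio, and for Hhip and Gas1 it was smaller. A dye part of equal size in both orientations cancels in the mean of a mouse. With the mutant in Cy3 alone the brain means were -0.15 for Notch3, -0.06 for Adam10, -0.14 for Psen2, 0.06 for Hhip and -0.20 for Gas1. With the mutant in Cy5 alone they were 0.01, 0.15, 0.22, 0.15 and -0.03, so Notch3, Adam10 and Psen2 stood on opposite sides of 0 in the 2 orientations. In thymus the dye part was -0.04 for Adam10 and -0.19 for Hhip. Adam10 did not have its orientations on opposite sides of 0 in every mouse, as 5.81% of probes measured in all 4 mice did. Hhip gave both orientations in only 2 thymus mice and could not be counted there.

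**Figure D3:**
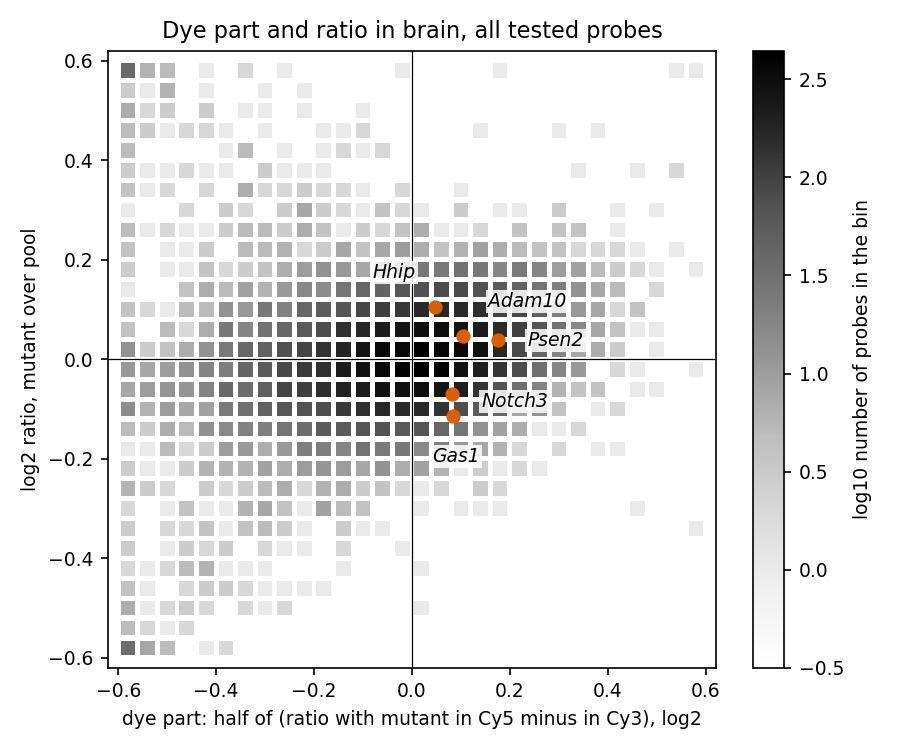
Dye part (horizontal, log2) and ratio of mutant over pool (vertical, log2) of all probes tested in brain, binned, with the shade giving the number of probes on a log10 scale and values beyond the axes placed in the outermost bins. The 5 genes, in orange, have dye parts of 0.05 to 0.18 and ratios of -0.11 to 0.10 and lie in the dense centre.

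Other genes of the pathways were taken from lists written from textbook knowledge. Of 101 such genes 10 had a named probe, 7 of the Notch and 3 of the hedgehog list, and each had a single probe. In brain 7 of the 10 were tested, 2 above and 5 below 0, and 0 passed in limma in either direction (0% of all probes) or at an unadjusted p under 0.05 (4.46% of all probes). Their median ratio was -0.01. Furin, a protease that cuts Notch receptors on their way to the surface, stood at -0.06 ± 0.06. Cntn1, a neural adhesion protein reported as a Notch ligand, stood at -0.01 ± 0.07 (SD, n = 3 each). Of modulators, the ubiquitin ligases Neurl1a and Dtx4 stood at -0.04 ± 0.06 (SD, n = 3) and -0.01 ± 0.04 (SD, n = 2). The acetyltransferase Kat2b, which works with the nuclear Notch complex, stood at 0.01 ± 0.11 (SD, n = 3). On the hedgehog side Evc, a protein of the primary cilium that relays signals of Smo, stood at 0.07 ± 0.01, with 0.08, 0.06 and 0.06 in the 3 mice. Ccnd2, a cyclin induced by hedgehog signals, stood at -0.02 ± 0.11 (SD, n = 3 each). Evc had a small spread between mice, yet its orientations stood at -0.12 in Cy3 and 0.26 in Cy5. Dtx1, Snw1 and Lrp2 were detected on 1, 2 and 1 of 6 brain arrays and were not tested.

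Only Furin of these 10 was tested in thymus. It stood at 0.01 ± 0.37 (SD, n = 4, limma adjusted p = 0.987), with -0.31, -0.01 and -0.17 in mice 1 to 3 and 0.53 in mouse 4. The value of mouse 4 came from replicate 8 at 1.22, beside its dye-swapped array at -0.16. On replicate 8 the Furin spot was not detected, with the pool channel at 1.16 times background. Without mouse 4 its mean was -0.16.

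**Figure D4:**
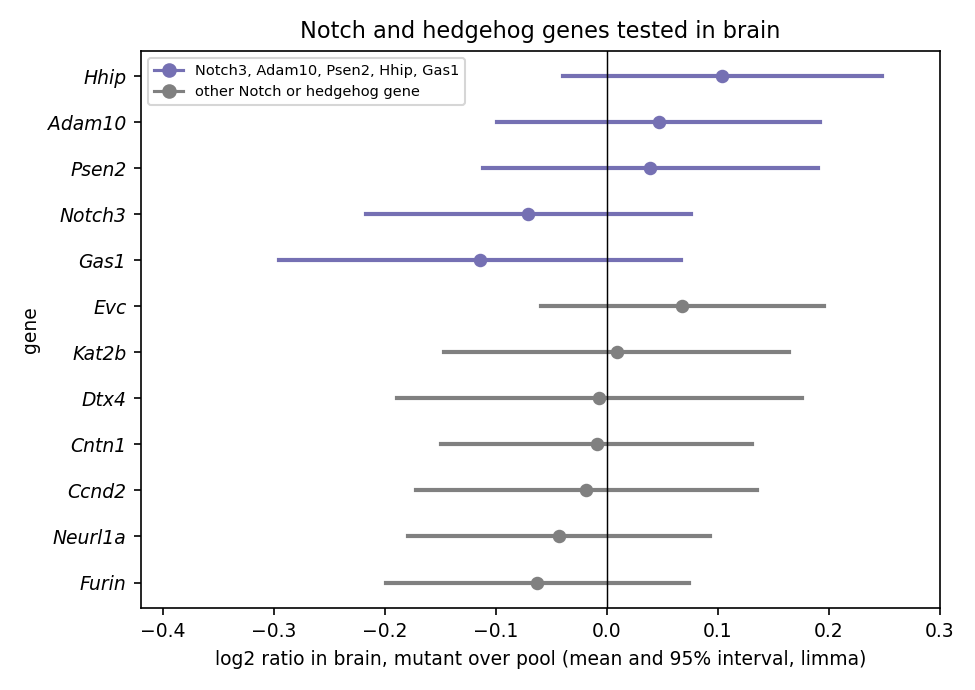
Mean log2 ratio of mutant over pool in brain with its 95% interval from limma (3 mice, Dtx4 with 2) for the 5 genes (purple) and the 7 other Notch and hedgehog genes tested (grey). Every interval contains 0; the widest of the 5 genes is that of Gas1, from -0.30 to 0.07.

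Whether the ratio itself differed between the organs could be tested for Adam10 and Hhip. Brain minus thymus was -0.05 for Adam10, with a 95% interval from -0.25 to 0.14 (limma adjusted p = 0.887, 3 and 4 mice). For Hhip it was 0.04, with an interval from -0.21 to 0.29 (limma adjusted p = 0.929, 3 and 2 mice), and it turned negative in 5 of 17 alternative settings. Neither passed (0 of 2, against 0% of 5240 probes, of which 365 or 6.97% had an unadjusted p under 0.05). For Furin the difference was -0.07, from -0.47 to 0.32.

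Spot intensities of the organs were compared gene by gene, as the mean log2 intensity of both channels after quantile normalisation. None of the 5 genes passed between brain and thymus in limma (0 of 5, against 0.583% of 16992 probes, 0.406% higher in brain and 0.177% higher in thymus). The median difference of all tested probes, brain minus thymus, was -0.14, which is the reference for the values that follow. Adam10 stood at 8.21, 7.51 and 7.98 in the brains and at 7.35, 7.84, 7.36 and 7.53 in the thymi, groups that overlap. Its difference was 0.38, with a 95% interval from -0.09 to 0.84 (limma adjusted p = 0.384). Hhip had a mean of 6.71 ± 0.22 (SD) over 3 brains and of 6.62 ± 0.25 over 4 thymi, a difference of 0.09 with an interval from -0.33 to 0.51 (limma adjusted p = 0.833), which turned to -0.08 in the pool channel alone. Gas1 had means of 6.30 ± 0.14 and 6.48 ± 0.11 (SD) over the same mice, a difference of -0.18 from -0.51 to 0.16 (limma adjusted p = 0.551). For Hhip and Gas1 the thymus values of mice 1 and 4 came from 1 array each, because the other spot was flagged. With flagged spots kept, the differences were 0.27 for Hhip and -0.19 for Gas1.

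As flagged spots were left out, Notch3 and Psen2 had no thymus intensity at all in some mice. Notch3 averaged 6.45 ± 0.23 (SD) over 3 brains and 6.56 ± 0.13 over 3 thymi (limma adjusted p = 0.787). Psen2 gave 6.13, 6.35 and 6.65 in the brains and 6.79 and 7.02 in the 2 thymi with a value, from 1 array each. The difference was -0.53, with an interval from -1.05 to -0.01 (limma adjusted p = 0.299). Psen2 was detected in thymus on those 2 arrays alone. Its 6 flagged thymus spots stood at 1.07 to 1.28 times background in the mutant channel, so leaving them out kept the brighter spots. With flagged spots kept, the differences turned to 0.17 for Notch3 and 0.18 for Psen2, and 340 probes passed in place of 99. The direction of these intensities therefore depended on which thymus spots were counted. Of the other 10 genes Cntn1 read 7.50 ± 0.31 in brain and 6.28 ± 0.10 in thymus (SD, n = 3 each), a difference of 1.22 (limma adjusted p = 0.0444). It was detected on all 6 brain arrays but on 1 of 8 thymus arrays, with 4 flagged, so it entered the test through brain and its thymus value is close to background. The size of this difference is therefore uncertain, and the call was lost in 9 of 14 alternative settings (adjusted p from 0.0506 to 0.416 in these), with any of the 4 mice left out among them, at differences of 0.78 to 1.43.

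**Figure D5:**
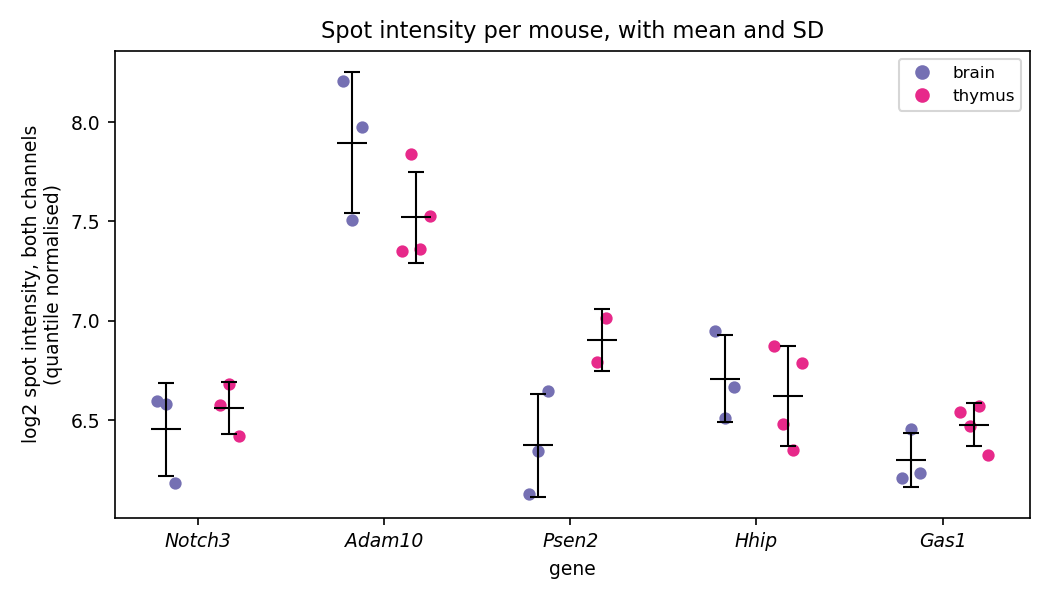
Log2 spot intensity (mean of both channels, quantile normalised) of the 5 genes, 1 point per mouse, brain in purple and thymus in pink, with mean and SD. Psen2 has 2 thymus points and Notch3 has 3, because flagged spots were left out. Within each gene the organs can be compared, while heights of different genes cannot.

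Genes with intensity profiles most like those of the 5 were sought over the 7 mouse-by-organ values. Notch3 and Psen2 lacked values and were left out. Closest to Adam10 were Cxcl14 (r = 0.85), Rab11b (r = 0.81) and Col13a1 (r = 0.79), out of 609 other named genes. Closest to Hhip were St6galnac2 (r = 0.91), Gdnf (r = 0.88) and Tomm40 (r = 0.83), and closest to Gas1 were Dclk1 (r = 0.92), Igsf6 (r = 0.86) and Tnfaip2 (r = 0.85). These values share arrays and normalisation, and with 7 points each they describe these hybridisations alone.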

How the data were processed

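Each array took 20 µg of total RNA, per the labels' protocols, with mutant and pool RNA in different dyes. The deposited scanner files hold foreground and background intensity of each spot and the percent of saturated pixels, per the file headers, and are not normalised. They have 20205 spots. The authors' deposited value table equals the scanner's log2 ratio plus 1 constant per array, within 0.01, for nearly all values. Because up to 111 values per array lie beyond 20 in size, the authors' deposited values were treated as a score, and how they were made beyond this match is not given in the sources used here. They served only as an alternative. The pools list 4 animals, while the protocol speaks of 6.

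Intensities were corrected by normexp (offset 50) and normalised within arrays by loess (span 0.3) with limma 3.58.1 and statmod 1.5.0 under R 4.3.3. Arrays of a mouse were averaged, and both had to give a value for a ratio, while 1 was enough for an intensity. Testing in an organ required detection on 0.5 or more of its arrays and values from 2 or more mice. Tests were limma's lmFit and eBayes with p-values adjusted by Benjamini and Hochberg's method across the probes tested, at 0.05. For intensities, quantile normalisation used all spots before flagged ones were left out. Alternatives changed the background correction, normalisation, treatment of flagged and dim spots, dye orientation, arrays and mice included and the block for mouse. Procedures were tested on these data with the mutant signal of some probes raised by set factors. Changes as small as the ratios above were not tried.

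Names came from a RefSeq table of GRCm38.p6, with 961 probes matched by accession and 492 by synonym. All 5 genes are named whatever they show, as are all other tested genes of the pathway lists, and the 3 closest genes by correlation. The genes and lists were chosen with earlier results of these data known. Mice 1 to 3 gave both organs, so the mouse number pairs samples. The correlation of brain with thymus deviations within these mice was 0.03, -0.04 and -0.03 (1741 probes). The number of mice limits the precision.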

Additional observations from a re-analysis of the deposited data

How the results depend on the processing

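In brain, Gas1 and Hhip kept their direction under every alternative in which they were tested. None of the 5 genes passed in brain under any alternative that tested it, nor did Adam10 and Hhip in thymus. With detection required on 0.75 of the arrays, Psen2 and Gas1 were not tested in brain, nor Hhip in thymus. Thymus Hhip was also not tested without mouse 2 or without mouse 3. Notch3, Psen2 and Gas1 were not followed under the alternatives in thymus. Sizes moved without a change of sign as well. In the authors' table thymus Hhip stood at 0.39, thymus Adam10 at 0.34 and brain Notch3 at -0.24. Brain Gas1 ran from -0.20 to -0.030, and the intensity difference of Adam10 was 0.17 without mouse 1 and 0.68 without mouse 2. The remaining values are log2 ratios, unless called intensity differences. All but the intensity differences of Cntn1 turned sign, or are ranges that include a turned sign, and the cause was not tested. In brain, Ccnd2 stood at 0.0034 with background subtracted. With the foreground median, Cntn1 stood at 0.022, Neurl1a at 0.0049, Kat2b at -0.023 and Ccnd2 at 0.014. Dtx4 stood at 0.031 with print-tip loess and 0.048 with flagged spots kept. With median centring, Cntn1 stood at 0.091, Neurl1a at 0.099 and Kat2b at -0.041, and in the authors' table at 0.20, 0.23 and -0.091. Scaling between arrays gave Dtx4 0.015, Kat2b -0.0048 and Ccnd2 0.0039. The mutant in Cy3 alone gave Adam10 -0.057, Psen2 -0.14, Furin 0.10, Neurl1a 0.039, Dtx4 0.21, Kat2b -0.031, Evc -0.12 and Ccnd2 0.058. In Cy5 alone Notch3 stood at 0.012 and Cntn1 at 0.027. Leaving out 1 mouse gave -0.017 to 0.076 for Psen2, -0.061 to 0.040 for Ccnd2, -0.050 to 0.015 for Cntn1 and -0.049 to 0.059 for Kat2b. In thymus, Adam10 stood at -0.025 with print-tip loess. Furin stood at -0.044 with the foreground median, -0.039 with median centring, -0.019 with scaling, -0.27 with Cy3 alone, -0.16 without array 8, and -0.16 to 0.12 with 1 mouse left out. Hhip stood at -0.14 with Cy5 alone, -0.041 with 1 array enough and -0.13 without array 1. For the organ difference, Hhip stood at -0.026 with background subtracted, -0.12 with the foreground median, -0.010 with print-tip loess, -0.25 in the authors' table and -0.20 with Cy3 alone. Adam10 stood at 0.065 with print-tip loess, 0.091 with Cy5 alone, and -0.091 to 0.036 with 1 mouse left out. Furin stood at 0.37 with Cy3 alone, 0.098 without thymus array 8, -0.17 to 0.099 with 1 mouse left out, and 0.099 with the mouse as replicate block. Intensity differences turned to 0.17 for Notch3, 0.18 for Psen2 and 0.016 for Ccnd2 with flagged spots kept. They turned to -0.084 for Hhip and 0.067 for Dtx4 with the pool channel only, to -0.057 for Hhip without background correction, and to -0.12 for Neurl1a without thymus array 6. With 1 mouse left out Neurl1a ran from -0.054 to 0.31 and Cntn1 from 1.07 to 1.43. With the mouse as replicate block the intensity difference of Cntn1 was 1.16 (limma adjusted p = 0.253), and no other call on these genes changed. Leaving out thymus arrays 6 and 8 was chosen after seeing the data.

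Counts over all probes moved as follows. In brain 1 probe passed with the foreground median and 1 with the mutant in Cy5 alone, and 0 to 1 with a mouse left out. In thymus 0 to 1 passed with a mouse left out. For the organ difference 1 passed with the foreground median. For intensities 42 passed with the pool channel only, 50 without background correction, 340 with flagged spots kept, 7 with the mouse as replicate block, 241 without thymus array 6, and 9 to 35 with a mouse left out. Spots near background and flagged spots limit what thymus can show.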
